A study of Mus musculus with 24 samples.

Results

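The genes described here encode the receptors for corticosteroids and for corticotropin-releasing hormone, the proteins that help the steroid receptors fold, and an enzyme that makes active steroid inside cells. They are the receptor genes Nr3c1 (glucocorticoid receptor), Nr3c2 (mineralocorticoid receptor) and Crhr1 (corticotropin-releasing hormone receptor), the cochaperone genes Fkbp5, Fkbp4, Ptges3, Stip1, Ppp5c and Ppid, and the enzyme gene Hsd11b1. Members were all probes, control spots left out, whose transcript identifier in the scanner files belongs to one of these 10 gene symbols. This gave 20 probes, out of 56605 unique probes on the array and 23787 genes with a named probe. Nr3c2, Fkbp4 and Ppid had 3 probes each, Nr3c1, Fkbp5, Crhr1 and Ppp5c had 2 each, and Ptges3, Stip1 and Hsd11b1 had 1 each. The probes of a gene carried the same transcript identifier, except those of Ppid, which carried 2.

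Corticosterone, the main glucocorticoid of mice, crosses the cell membrane and binds receptors that the chaperone Hsp90 and its cochaperones hold in a form ready for hormone. The hippocampus is known for holding both steroid receptors, of which the mineralocorticoid receptor binds corticosterone more tightly. Fkbp5 is a well known target of the glucocorticoid receptor, and its protein lowers the affinity of the receptor for hormone, so that the pair forms a short feedback loop, whereas the protein of Fkbp4 favors the movement of the receptor into the nucleus.

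Hippocampi were taken from 48 male Swiss-Webster mice, given in the labels as 12 weeks of age, and the animals were measured individually. Treated animals received corticosterone (100 µg/ml) in drinking water with 0.45% hydroxypropyl-β-cyclodextrin, a carrier that keeps the steroid in solution, and control animals received the carrier alone, in both cases over a 12 h dark phase, the active period of mice. Tissue was collected in the first, the fifth or the ninth hour of the light phase that came next, which is the resting period, from 8 control and 8 treated animals at each hour. Control animals were brothers of the treated ones and a group mixed several litters, but the litter of an animal is not in the labels, so it entered no test. Each of 24 dual-color arrays carried RNA of 1 control animal labelled with Cy3 and of 1 treated animal labelled with Cy5. The dyes were swapped on no array, so treatment and dye cannot be told apart within an hour, whereas a dye difference that is constant for a probe cancels where the effect is compared between hours or where animals of the same treatment are compared. The arrays lay on 3 slides, slide 1 with 2, 2 and 4 arrays of the first, the fifth and the ninth hour and slides 2 and 3 with 3, 3 and 2 each.

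Signal intensity below is the background-corrected and normalized intensity of a spot on a linear scale, and a log2 fold change sets corticosterone-treated over control animals unless hours are compared. A difference is called where its adjusted p, from limma over all 56605 probes, is below 0.05, and SE is the standard error of the log2 fold change. Of the spots of an array, 60.8% to 67.2% were well above background in Cy3 and 64.0% to 73.5% in Cy5, and the number of arrays limits the precision of every value. Each member probe was well above background in all 48 channels, except the Crhr1 probe A_52_P4910, which was in 38.

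In the first hour of rest, 12 of the 20 probes, belonging to 8 of the 10 genes, differed between treated and control animals, 3 of them higher and 9 lower in treated animals. Among all probes of the array 8.79% were higher and 8.74% lower. During the fifth hour 10 member probes of 7 genes were called, 4 higher and 6 lower (all probes, 8.64% and 9.5%), and during the ninth hour 7 probes of 6 genes, 2 higher and 5 lower (6.97% and 6.93%). When each gene was represented by its brightest probe, 1 gene was higher and 5 were lower during the first hour, 3 and 3 during the fifth hour, and 1 and 3 during the ninth hour, against 10.2% and 10.4%, 9.9% and 10.9%, and 8.32% and 7.15% of all named genes. The share of called members was thus above that of the array at each hour, on a list whose members were chosen with earlier results known. The median log2 fold change of the 20 probes was -0.04, -0.06 and -0.05 at the 3 hours, beside -0.00, 0.00 and 0.00 for all probes. The effect of treatment itself changed between the ninth and the first hour for 3 member probes, 1 of Nr3c1 and 2 of Fkbp5 (0.829% of all probes), between the fifth and the first hour for 1 probe of Fkbp5 (0.0389%), and between the ninth and the fifth hour for 3 probes, 1 of Nr3c1 and 2 of Fkbp5 (0.0813%). On 1 first-hour array of slide 3 the markers of neighboring brain tissue summed to 21697 in the treated animal, with the next treated animal at 14266 and the control animals of that hour at 11732 to 15075. Without that array, an alternative chosen after seeing the data, 13, 10 and 7 member probes were called at the 3 hours, and 3, 1 and 3 for the changes of the effect in the order given. The plot of log2 fold changes of all member probes shows these calls beside the probes that were not called.

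**Figure D1:**
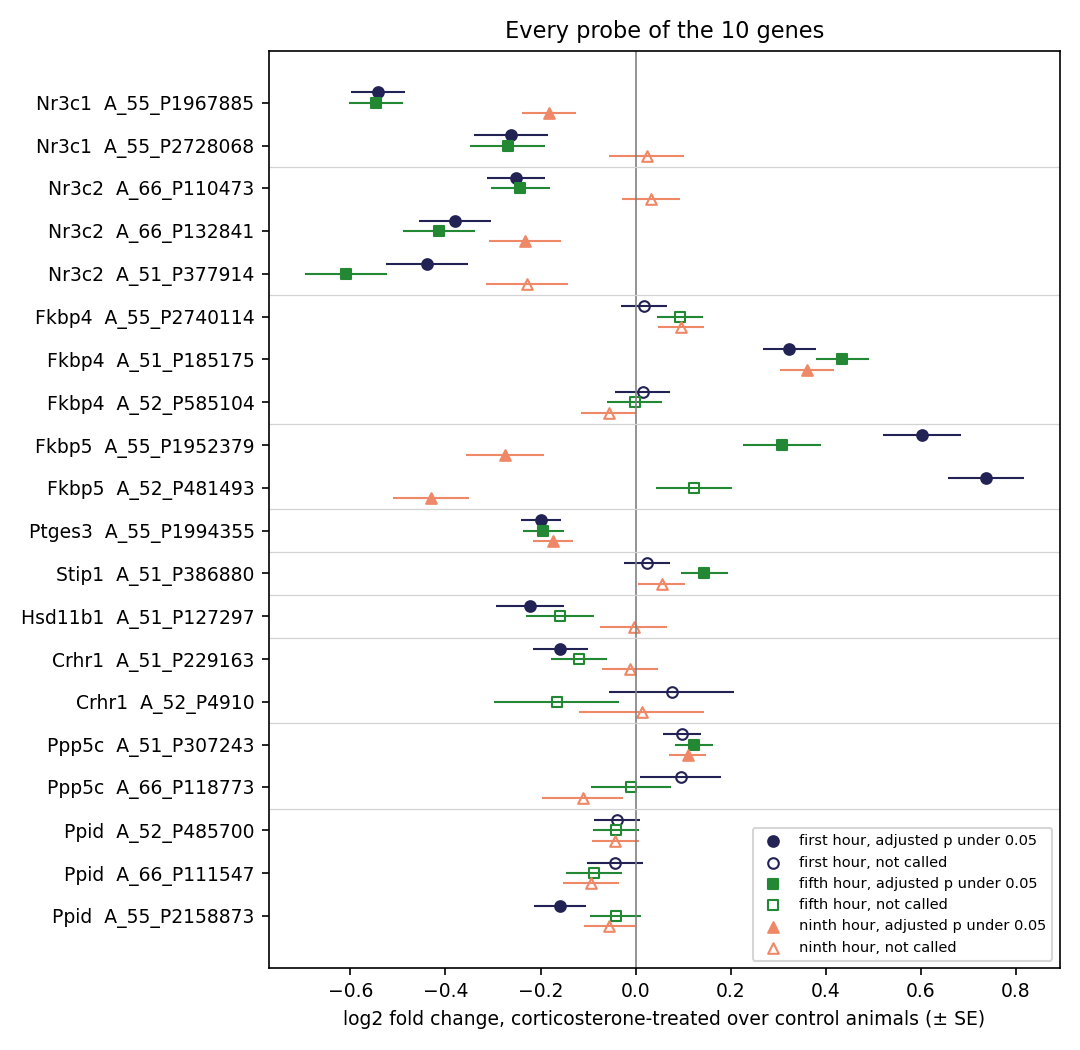
Log2 fold change of corticosterone-treated over control animals for each of the 20 probes at the 3 hours of the resting period. Points are estimates over 8 arrays per hour, bars the standard error, and filled points have an adjusted p below 0.05. Fkbp5 is above 0 during the first hour and below 0 during the ninth, Nr3c1 and Nr3c2 lie below 0 during the first and the fifth hour, and of the 3 Fkbp4 probes only A_51_P185175 is called, at each hour.

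Promoters were set beside the values for members with a probe called at each of the 3 hours, where a window was searched. They come from RefSeq (mouse build GRCm38.p6), 250 bases before to 50 after the start of the gene. Windows of 8 of the 10 members were searched. Ppid had no entry. Member entries on the chromosome of Nr3c1 were left out of the search, so the Nr3c1 promoter was not searched. Capitals mark matches, on either strand, to 6 motifs that were searched: the glucocorticoid response element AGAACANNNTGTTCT (in 0.00913% of 32851 mouse promoters), its unit AGAACA, which the full element contains (19%), the heat shock pair GAANNTTC, made of inverted GAA units (7.86%), a longer run in which that pair is followed by NNGAA (0.603%), the E-box CACGTG (7.15%) and CCAAT (37.4%).
Fkbp5: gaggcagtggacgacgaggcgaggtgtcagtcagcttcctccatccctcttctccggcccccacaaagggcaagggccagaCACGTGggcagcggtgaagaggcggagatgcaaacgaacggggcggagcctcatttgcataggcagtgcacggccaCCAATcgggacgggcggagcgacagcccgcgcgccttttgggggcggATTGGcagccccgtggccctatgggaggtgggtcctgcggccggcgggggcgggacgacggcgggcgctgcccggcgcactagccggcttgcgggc
Nr3c2: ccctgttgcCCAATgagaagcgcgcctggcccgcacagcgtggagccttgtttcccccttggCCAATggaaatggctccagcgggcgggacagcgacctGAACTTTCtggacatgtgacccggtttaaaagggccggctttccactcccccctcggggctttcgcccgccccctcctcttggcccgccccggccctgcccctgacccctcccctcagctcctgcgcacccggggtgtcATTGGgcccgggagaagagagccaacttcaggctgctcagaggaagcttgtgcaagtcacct
Fkbp4: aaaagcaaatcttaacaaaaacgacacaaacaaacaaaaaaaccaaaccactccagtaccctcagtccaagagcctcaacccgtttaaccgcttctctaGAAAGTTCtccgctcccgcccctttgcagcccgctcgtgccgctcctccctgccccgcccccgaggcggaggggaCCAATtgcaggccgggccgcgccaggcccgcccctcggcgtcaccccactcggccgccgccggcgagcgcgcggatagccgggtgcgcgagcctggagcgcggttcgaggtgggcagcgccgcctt
Ptges3: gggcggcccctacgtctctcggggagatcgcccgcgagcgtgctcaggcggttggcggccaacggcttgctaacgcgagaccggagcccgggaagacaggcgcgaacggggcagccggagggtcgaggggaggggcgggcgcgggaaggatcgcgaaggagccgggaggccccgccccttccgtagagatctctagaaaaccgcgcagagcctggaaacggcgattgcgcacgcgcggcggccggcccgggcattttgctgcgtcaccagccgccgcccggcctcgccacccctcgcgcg
The Fkbp5 window lies on the minus strand at chr17:28486100-28486399 and the Nr3c2 window on the plus strand at chr8:76902080-76902379. The Fkbp4 window lies on the minus strand at chr6:128438607-128438906, and that of Ptges3 on the plus strand at chr10:128058732-128059031. Fkbp5 held 1 match to CACGTG and 2 to CCAAT, Nr3c2 held 1 to the heat shock pair and 3 to CCAAT, Fkbp4 held 1 to the heat shock pair and 1 to CCAAT, and Ptges3 held 0 to any of the motifs. Of the members not shown, Stip1 held 4 matches to CCAAT, Hsd11b1 and Ppp5c held 1 each to CCAAT, and Crhr1 held 0 to any of the motifs. Neither the glucocorticoid response element nor its unit was found in any of the 8 windows, which says only that these letters are not in the 300 bases searched.

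Nr3c1, the glucocorticoid receptor gene, was measured by probes A_55_P1967885 and A_55_P2728068. During the first hour the signal intensity of A_55_P1967885 was 6884 in the lowest control animal, 7432 at the median and 7767 in the highest, and in treated animals 4254, 5166 and 5853. The fifth hour gave 6452, 7527 and 8907 in control animals and 4496, 5061 and 5862 in treated animals. During the ninth hour they were 5956, 6576 and 7227 against 5286, 5684 and 6272. All treated animals were below all control animals in the first and the fifth hour, while the groups overlapped in the ninth. The log2 fold change was -0.54 (SE 0.0569, adjusted p = 2.34e-10, lower on 8 of 8 arrays) in the first hour, -0.55 (adjusted p = 3.12e-10, 8 of 8) in the fifth and -0.18 (adjusted p = 0.0177, 7 of 8) in the ninth. With slide as a block the fold changes were the same and the adjusted p were 4.93e-10, 7.43e-10 and 0.0200, and the means within a slide ran from -0.66 to -0.32, from -0.70 to -0.36 and from -0.27 to -0.09. The calls of the first and the fifth hour held under all alternatives run, while that of the ninth was lost without slide 2 (-0.15, adjusted p = 0.0868) and without slide 3 (-0.15, adjusted p = 0.151), its adjusted p over 18 alternatives lying between 0.00618 and 0.151.

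The effect on Nr3c1 was smaller in the ninth hour than before. For A_55_P1967885 it changed by 0.36 on the log2 scale from the first to the ninth hour (SE 0.0805, adjusted p = 0.00533, with slide as a block 0.00678) and by 0.36 from the fifth to the ninth (adjusted p = 0.0255, block 0.0307). Neither side of this change was called by itself: control animals of the ninth hour were at -0.19 against those of the first (adjusted p = 0.205) and treated animals at 0.17 (adjusted p = 0.141). The change from the first hour was lost without slide 1 (0.34, adjusted p = 0.175), slide 2 (0.32, 0.0835) and slide 3 (0.37, 0.131), and in a test on log ratios with slide as a block, chosen after seeing the data (0.33, 0.0853), with adjusted p of 0.00310 to 0.175 over 17 alternatives. The change from the fifth hour was lost without slide 1 (0.22, adjusted p = 1.00) and slide 3 (0.35, 0.511) and in 5 other settings, over a range of 0.00255 to 1.00.

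The other Nr3c1 probe, A_55_P2728068, gave 3782, 4252 and 4999 as lowest, median and highest control animal of the first hour and 3118, 3549 and 3972 in treated animals. In the fifth hour control animals ran from 2993 to 4776 (median 4432) and treated animals from 2064 to 4273 (median 3709), and in the ninth from 3671 to 4175 (median 4035) and from 3122 to 4617 (median 4215). Treated animals were lower at the median in the first and the fifth hour, the groups overlapping at each of the 3 hours. The lowest control and the lowest treated animal of the fifth hour, both on 1 array of slide 3, stood apart from the next, at 4014 and 3411. The log2 fold changes were -0.26 (SE 0.0787, adjusted p = 0.0112, lower on 8 of 8 arrays), -0.27 (adjusted p = 0.00907, 7 of 8) and 0.02 (adjusted p = 0.878, 3 of 8). With slide as a block the adjusted p of the first and the fifth hour were 0.0133 and 0.0109. The first was lost without slide 3 (-0.16, adjusted p = 0.134, the largest over the alternatives, which start at 0.000117), and the fifth without slide 1 (-0.24, 0.0875), without slide 3 (-0.19, 0.0804) and in a separate fit for each hour (-0.27, 0.0675; range 9.21e-05 to 0.0875). Between the first and the ninth hour its effect changed by 0.29 (adjusted p = 0.371) which was not called, except in the test on log ratios with slide as a block that was chosen after seeing the data (0.31, adjusted p = 0.0106; range 0.0106 to 0.762).

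**Figure D2:**
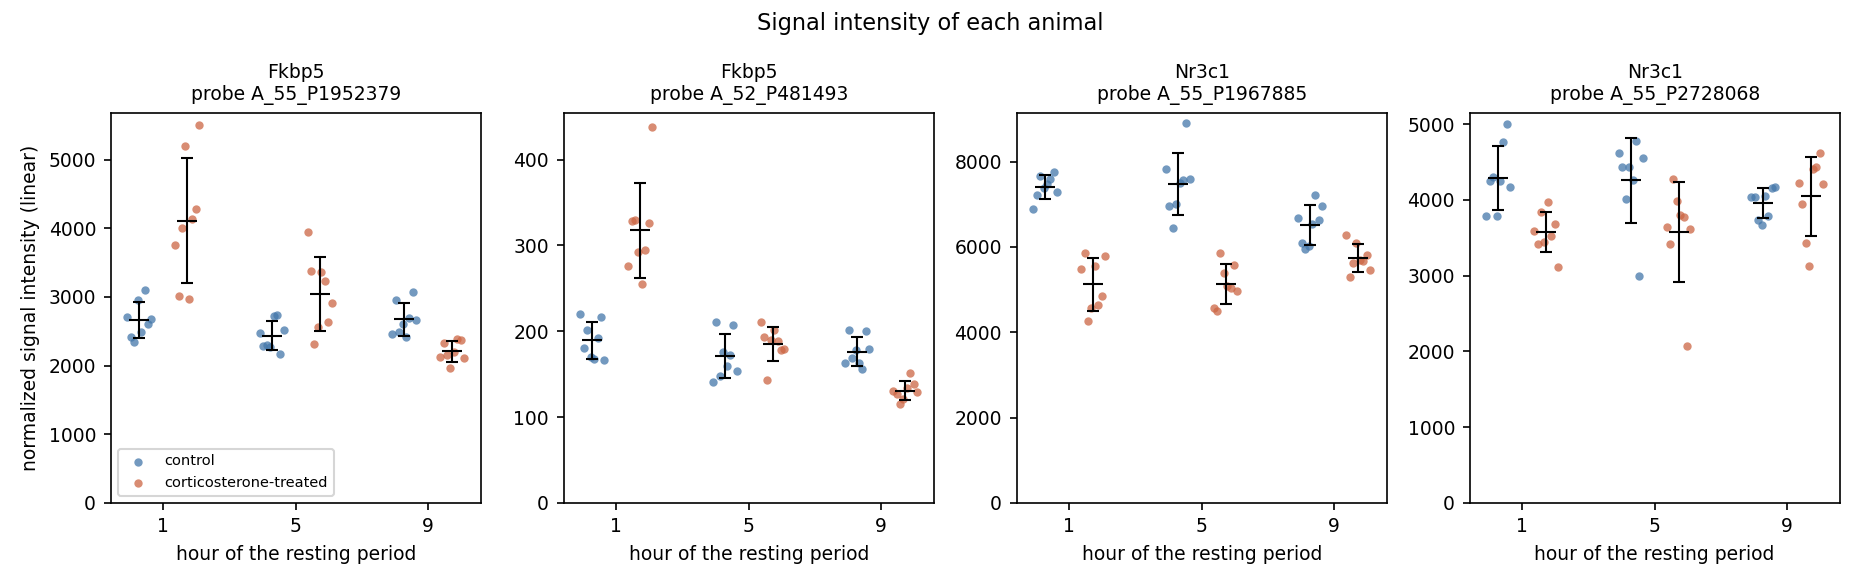
Signal intensity of the Fkbp5 and Nr3c1 probes in each animal, by hour of the resting period, for control and corticosterone-treated animals (8 each per hour). Points are animals, and bars give the mean and SD. Treated animals lie below control animals for Nr3c1 A_55_P1967885 in the first and the fifth hour. For Fkbp5 the treated animals are higher at the mean in the first hour, with overlap for A_55_P1952379 and none for A_52_P481493. In the ninth hour they lie below the controls for both Fkbp5 probes.

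Nr3c2, the mineralocorticoid receptor gene, was measured by 3 probes, of which A_66_P110473 gave the brightest spots. Its signal intensity in the first hour was 9696, 11245 and 12404 in the lowest, median and highest control animal and 8103, 9262 and 11785 in treated animals. In the fifth hour it was 10254, 11964 and 14194 against 8425, 9709 and 12433, and in the ninth 10476, 11713 and 12314 against 10912, 11820 and 13100. The groups overlapped at each hour, with the treated median below that of controls in the first and the fifth hour and close to it in the ninth. The log2 fold change was -0.25 (SE 0.0612, adjusted p = 0.00160, lower on 7 of 8 arrays) in the first hour, -0.24 (adjusted p = 0.00234, 7 of 8) in the fifth and 0.03 (adjusted p = 0.765, 4 of 8) in the ninth. With slide as a block the adjusted p of the first and the fifth hour were 0.00232 and 0.00333, and the slide means ran from -0.34 to -0.10 and from -0.38 to -0.11. Without slide 3 the calls were lost (-0.20 and -0.22, adjusted p = 0.0703 and 0.0552), the ranges over 18 alternatives being 0.000270 to 0.0703 and 0.000541 to 0.0552.

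The remaining Nr3c2 probes were lower in treated animals as well. A_66_P132841 gave 958, 982 and 1103 in control and 676, 782 and 874 in treated animals of the first hour, 945, 1042 and 1222 against 578, 816 and 1042 in the fifth, and 942, 1082 and 1211 against 732, 918 and 1056 in the ninth. A_51_P377914 gave 122, 134 and 146 against 81.1, 97.4 and 116 in the first hour, 117, 141 and 215 against 81.6, 97.0 and 125 in the fifth, and 123, 128 and 157 against 86.8, 109 and 139 in the ninth, where the highest control animal stood apart from the next at 137. For both probes the groups of the first hour did not overlap, and those of the later hours did. The log2 fold changes of A_66_P132841 were -0.38 (SE 0.0757, adjusted p = 0.000192, lower on 8 of 8 arrays), -0.41 (adjusted p = 5.73e-05, 7 of 8) and -0.23 (adjusted p = 0.0237, 7 of 8), with 0.000289, 9.09e-05 and 0.0284 where slide was a block. Those of A_51_P377914 were -0.44 (SE 0.0861, adjusted p = 0.000332, 8 of 8), -0.61 (adjusted p = 1.16e-06, 8 of 8) and -0.23 (adjusted p = 0.0732, 6 of 8), with 0.000506 and 2.36e-06 for the called hours where slide was a block. In the fifth hour slide 1 held the lowest values of both, with slide means of -0.87, -0.17 and -0.35 and of -1.10, -0.40 and -0.49 on slides 1, 2 and 3. The call of A_66_P132841 in the ninth hour was lost without slide 1 (-0.09, adjusted p = 0.559) and in 3 settings that test log ratios (0.0556 to 0.0917), over a range of 0.0195 to 0.559, and that of A_51_P377914 in the first hour without slide 3 (-0.36, adjusted p = 0.0600; range 9.03e-05 to 0.0600).

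Between hours, the call for Nr3c2 was within the treated animals, for the brightest of its 3 probes. Treated animals of the ninth hour were above those of the first by 0.32 on the log2 scale (adjusted p = 0.00174, with slide as a block 0.00213), a call lost without slide 2 (0.31, adjusted p = 0.0513) and slide 3 (0.26, 0.0780; range 0.00102 to 0.0780). Between the first and the ninth hour the treatment effect on this probe changed by 0.28, which was not called (adjusted p = 0.0991), so a difference in effect between these hours was not shown.

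**Figure D3:**
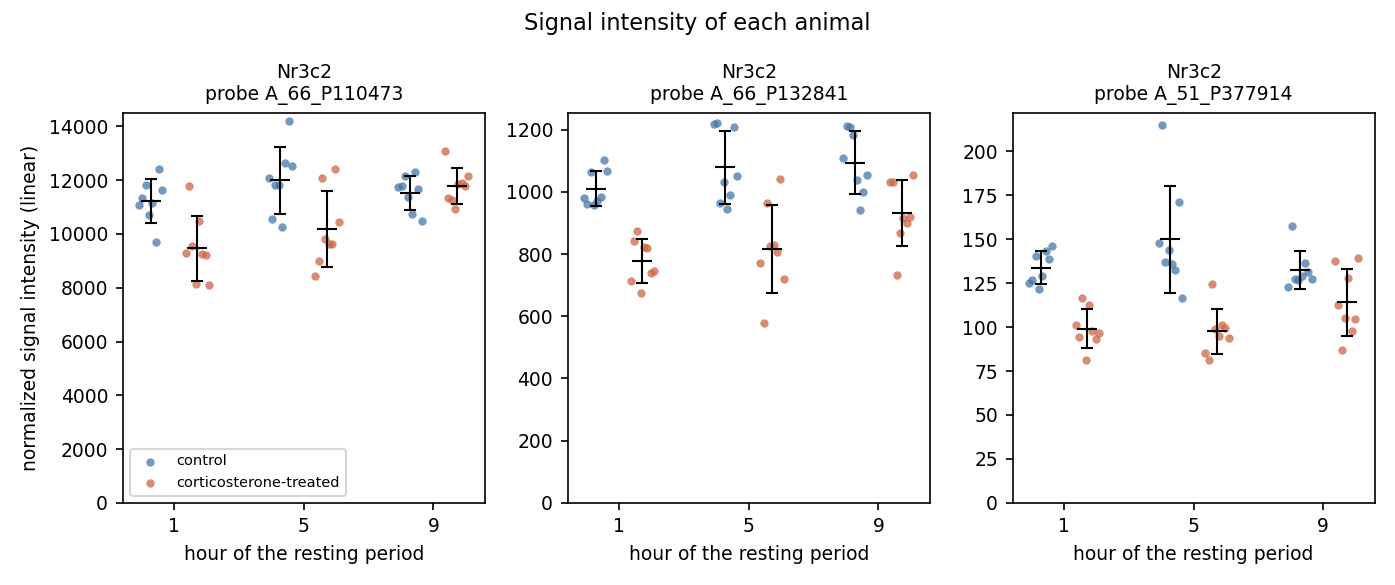
Signal intensity of the 3 Nr3c2 probes in each animal, by hour of the resting period, for control and corticosterone-treated animals (8 each per hour). Points are animals, and bars give the mean and SD. In the first hour the treated animals lie below the controls for A_66_P132841 and A_51_P377914 without overlap, and the medians of A_66_P110473 meet in the ninth hour.

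Crhr1, the receptor for corticotropin-releasing hormone, had a call in the first hour for probe A_51_P229163. Its signal intensity was 772, 846 and 984 in the lowest, median and highest control animal and 612, 778 and 852 in treated animals of that hour, so the groups overlapped, and the lowest treated animal stood apart from the next at 742. The log2 fold change was -0.16 (SE 0.0588, adjusted p = 0.0417, lower on 8 of 8 arrays, with slide as a block 0.0432). The call was lost in 6 settings, among them without slide 1 (-0.14, adjusted p = 0.120), slide 2 (-0.12, 0.283) and slide 3 (-0.22, 0.0668), over a range of 0.0107 to 0.283. The fifth hour, at -0.12 (adjusted p = 0.133, lower on 7 of 8), was called in 2 settings, with the processed signals of the scanner software (-0.14, adjusted p = 0.0435) and without slide 2 (-0.20, 0.0449; range 0.0435 to 0.728). The ninth hour was at -0.01. A change of the effect between hours was not shown, with 0.04 from the first to the fifth (adjusted p = 1.00) and 0.15 from the first to the ninth (adjusted p = 0.764). Probe A_52_P4910, near background with medians of 34.5 to 42.9 over the 6 groups and 1 treated animal of the first hour apart at 55.2 (next 36.9), was at 0.08, -0.17 and 0.01 (SE 0.131) with no call.

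Fkbp5, the cochaperone gene that glucocorticoids induce, was the member whose difference turned from higher to lower within the resting period. The signal intensity of A_55_P1952379 in the first hour was 2349 in the lowest control animal, 2641 at the median and 3098 in the highest, and 2973, 4070 and 5504 in treated animals. Fifth-hour values were 2170, 2388 and 2743 against 2320, 3079 and 3950. Those of the ninth hour were 2417, 2637 and 3076 against 1962, 2176 and 2392. Treated animals were high in the first hour with a slight overlap, still higher at the median in the fifth, and in the ninth all of them were below all control animals. The log2 fold changes were 0.60 (SE 0.0815, adjusted p = 1.81e-07, higher on 8 of 8 arrays), 0.31 (adjusted p = 0.00429, 8 of 8) and -0.27 (adjusted p = 0.0138, lower on 8 of 8). Blocked by slide, the adjusted p were 3.08e-07, 0.00509 and 0.0158, and the means on slides 1, 2 and 3 were 0.40, 0.61 and 0.73 in the first hour, 0.62, 0.16 and 0.25 in the fifth and -0.29, -0.16 and -0.36 in the ninth. The fifth hour lost its call without slide 1 (0.20, adjusted p = 0.127; range 0.00167 to 0.127), and the ninth without slide 1 (-0.26, adjusted p = 0.183) and slide 3 (-0.25, 0.0980; range 0.000636 to 0.183).

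The dimmer Fkbp5 probe, A_52_P481493, gave 167, 187 and 221 in control and 255, 311 and 438 in treated animals of the first hour. In the fifth hour it gave 141, 166 and 211 against 143, 189 and 210, and in the ninth 156, 174 and 202 against 115, 130 and 151. Here the groups did not overlap in the first hour, with treated animals higher, nor in the ninth, with treated animals lower, and they covered the same range in the fifth. The highest treated animal of the first hour and the lowest of the fifth stood apart from the next, at 329 and 178. The log2 fold changes were 0.74 (SE 0.0797, adjusted p = 4.85e-10, higher on 8 of 8 arrays), 0.12 (adjusted p = 0.311, 5 of 8) and -0.43 (adjusted p = 0.000283, lower on 8 of 8), with adjusted p of 6.99e-10, 0.312 and 0.000306 where slide was a block. The slide means were 0.59, 0.70 and 0.87 in the first hour and -0.53, -0.17 and -0.49 in the ninth, whose call was lost without slide 1 (-0.33, adjusted p = 0.106; range 3.43e-05 to 0.106).

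The effect on Fkbp5 in the ninth hour was compared with that in the first, which cancels a constant dye difference, and the change was -0.88 for A_55_P1952379 (SE 0.115, adjusted p = 6.30e-07) and -1.17 for A_52_P481493 (SE 0.113, adjusted p = 3.99e-10). Where slide was a block the adjusted p were 1.02e-06 and 6.82e-10, and over 17 alternatives they lay between 3.69e-07 and 0.00546 and between 2.26e-10 and 3.90e-05, with no call lost. From the first to the fifth hour the change was -0.29 (adjusted p = 0.918) and -0.61 (adjusted p = 0.00175, block 0.00234), and from the fifth to the ninth -0.58 (adjusted p = 0.00784, block 0.00982) and -0.55 (adjusted p = 0.0255, block 0.0274). The calls of these shorter intervals depended on the slides. That of A_52_P481493 from the first to the fifth hour was lost without slide 2 (-0.64, adjusted p = 0.0975) and slide 3 (-0.49, 0.893; range 0.000988 to 0.893), and that from the fifth to the ninth without slide 1 (-0.42, 1.00), slide 2 (-0.63, 0.0899) and slide 3 (-0.58, 0.214) and in 3 settings that test log ratios (range 0.00352 to 1.00). That of A_55_P1952379 from the fifth to the ninth was lost without slide 1 (-0.46, 0.914) and slide 3 (-0.59, 0.241; range 0.00297 to 0.914).

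Within the treated animals Fkbp5 fell over the resting period, while a difference between hours was not shown in control animals. Treated animals of the ninth hour stood at -0.87 (adjusted p = 3.31e-09, block 7.14e-09) and -1.27 (adjusted p = 2.53e-14, block 3.19e-14) against those of the first for A_55_P1952379 and A_52_P481493. The same comparison in control animals gave 0.01 (adjusted p = 0.995) and -0.10 (adjusted p = 0.627). From the first to the fifth hour the treated animals changed by -0.42 (adjusted p = 0.0146) and -0.77 (adjusted p = 7.72e-08), and from the fifth to the ninth by -0.45 (adjusted p = 0.00659) and -0.50 (adjusted p = 0.00232). For A_55_P1952379 the call from the first to the fifth hour was lost without slide 2 (-0.35, adjusted p = 0.255) and slide 3 (-0.28, 0.729), without the first-hour array named above (-0.36, 0.0628) and with the processed signals of the scanner software (-0.33, 0.115; range 0.00343 to 0.729), and the call from the fifth to the ninth without slide 1 (-0.31, 0.617) and slide 3 (-0.48, 0.0630; range 0.00249 to 0.617). For A_52_P481493 the latter was lost without slide 1 (-0.37, 0.471; range 0.000282 to 0.471).

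Fkbp4, the cochaperone gene related to Fkbp5, was called at all 3 hours, by A_51_P185175 alone among its 3 probes. Its signal intensity in the first hour was 738, 867 and 902 in the lowest, median and highest control animal and 858, 1087 and 1207 in treated animals. At the fifth hour it was 746, 843 and 1081 against 1038, 1159 and 1330, and in the ninth 714, 793 and 901 against 948, 1013 and 1133. Treated animals were higher at each hour, with all of them above all controls in the ninth and some overlap before. Fold changes on the log2 scale were 0.32 (SE 0.0564, adjusted p = 1.82e-05), 0.43 (adjusted p = 5.49e-08) and 0.36 (adjusted p = 6.32e-06), each higher on 8 of 8 arrays. Where slide was a block the adjusted p were 3.27e-05, 1.16e-07 and 1.19e-05, the slide means ran from 0.26 to 0.40, 0.35 to 0.54 and 0.33 to 0.38, and no alternative run removed a call. A change of the effect between hours was not shown (0.04, 0.11 and -0.07 on the log2 scale, adjusted p = 1.00 each).

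The other Fkbp4 probes did not pass the test at any hour. A_55_P2740114, the brightest, was at 0.02, 0.09 and 0.10 (SE 0.0482, higher on 5, 6 and 8 of 8 arrays), and A_52_P585104 at 0.01, -0.00 and -0.06. In a separate fit for each hour the ninth hour of A_55_P2740114 was called (0.10, adjusted p = 0.0404; 0.148 in the joint fit; range 0.0404 to 0.575). For A_55_P2740114 the control animals of the ninth hour, at 4193, 4387 and 4723, were lower than those of the first, at 4675, 5141 and 5948, with slight overlap. That difference was -0.24 (SE 0.0564, adjusted p = 0.0153, with slide as a block 0.0138), and it was lost without slide 1 (-0.27, adjusted p = 0.424) and slide 2 (-0.23, 0.106; range 0.00466 to 0.424). It was the only call of a member between hours in control animals. In treated animals the same probe was at -0.16 (adjusted p = 0.0702), which was called with dim probes left out (0.0433) and with the processed signals of the scanner software (0.0362; range 0.0362 to 0.293).

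Ptges3, which encodes the cochaperone p23 that stabilizes the complex of Hsp90 and receptor, was lower in treated animals at each hour. The signal intensity was 7875, 8422 and 9791 in control and 6811, 7616 and 8017 in treated animals of the first hour. At the fifth hour it was 8002, 8793 and 10186 against 7184, 7618 and 8576, and in the ninth 8083, 8626 and 8793 against 7157, 7580 and 8130. The groups overlapped a little at each hour. On the log2 scale the fold changes were -0.20 (SE 0.0426, adjusted p = 0.000261, lower on 8 of 8 arrays), -0.19 (adjusted p = 0.000374, 7 of 8) and -0.17 (adjusted p = 0.00186, 8 of 8), with 0.000218, 0.000316 and 0.00158 where slide was a block. Without slide 3 the first hour lost its call (-0.14, adjusted p = 0.0657; range 4.20e-06 to 0.0657). A change of the effect between hours, which cancels a constant dye difference, was not called. It was 0.03 from the first to the ninth hour, 0.01 from the first to the fifth and 0.02 from the fifth to the ninth.

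Of the other cochaperone genes, Stip1, whose protein links Hsp70 to Hsp90, was higher in treated animals of the fifth hour. Its signal intensity then was 2702, 3115 and 3313 in control and 3085, 3253 and 3882 in treated animals, with overlap. The log2 fold change was 0.14 (SE 0.0488, adjusted p = 0.0206, higher on 7 of 8 arrays, with slide as a block 0.0255), beside 0.02 and 0.05 in the first and the ninth hour. The change of the effect was not called from the first to the fifth hour (0.12, adjusted p = 1.00) or from the fifth to the ninth (-0.09, adjusted p = 1.00). The call was lost without slide 1 (0.11, adjusted p = 0.137), slide 3 (0.13, 0.153) and in a separate fit for each hour (0.14, 0.0548; range 0.00683 to 0.153).

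Ppp5c, which encodes a phosphatase that binds Hsp90, was higher by a small amount, for A_51_P307243 alone among its 2 probes. Its log2 fold changes were 0.10 (SE 0.0397, adjusted p = 0.0522, higher on 7 of 8 arrays), 0.12 (adjusted p = 0.0135, 8 of 8) and 0.11 (adjusted p = 0.0339, 8 of 8), and with slide as a block the called hours had 0.0157 and 0.0384. In the fifth hour control animals ran from 3918 to 4943 (median 4165) and treated animals from 4205 to 5735 (median 4520), the highest treated animal standing apart from the next at 4721. In the ninth hour control animals ran from 4007 to 4469 (median 4173) and treated animals from 4386 to 4702 (median 4537), so the groups overlapped at both hours. The effect changed by 0.01 from the first to the ninth hour, 0.02 from the first to the fifth and -0.01 from the fifth to the ninth, none called. The first hour was called in 8 settings (adjusted p from 0.0180 to 0.0485; range over the alternatives 0.0180 to 0.252). The fifth was lost without slide 1 (0.11, adjusted p = 0.117), slide 3 (0.09, 0.135) and in a separate fit for each hour (0.12, 0.0941; range 0.00369 to 0.135), and the ninth without slide 1 (0.10, 0.362), slide 2 (0.11, 0.119) and with no offset (0.11, 0.0595; range 0.0121 to 0.362). Probe A_66_P118773, whose lowest control animal of the ninth hour was apart at 194 (next 243), was at 0.09, -0.01 and -0.11 with no call.

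Ppid, the gene of cyclophilin 40, had a call for 1 of its 3 probes at 1 hour. A_55_P2158873 gave 815, 920 and 1077 in control and 729, 836 and 978 in treated animals of the first hour, with overlap, and the treated animals were at -0.16 on the log2 scale (SE 0.0539, adjusted p = 0.0223, lower on 8 of 8 arrays, with slide as a block 0.0167). The call was lost without slide 1 (-0.16, adjusted p = 0.0729), slide 2 (-0.14, 0.121) and slide 3 (-0.17, 0.0952) and with the processed signals of the scanner software (-0.11, 0.0723; range 0.00452 to 0.121). The fifth and the ninth hour were at -0.04 and -0.06, and the change of the effect was called between no hours. The probes A_52_P485700 and A_66_P111547 lay between -0.09 and -0.04 at the 3 hours with no call, each with 1 treated animal apart, at 12406 (next 10159) in the first hour and at 838 (next 972) in the ninth.

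Hsd11b1, which encodes the enzyme that regenerates active corticosterone from its inert form, was lower in treated animals of the first hour. Its signal intensity was 1723, 1977 and 2411 in control and 1472, 1724 and 2100 in treated animals, with wide overlap. The log2 fold change was -0.22 (SE 0.0711, adjusted p = 0.0176, lower on 7 of 8 arrays, with slide as a block 0.0228), and it was lost without slide 2 (-0.18, adjusted p = 0.211) and slide 3 (-0.22, 0.107; range 0.0146 to 0.211). In the fifth and the ninth hour it was -0.16 (adjusted p = 0.0930, lower on 7 of 8) and -0.00, and the ninth hour against the first gave a change in effect of 0.22 that was not called (adjusted p = 0.575).

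Ordered by the median signal intensity over the 6 groups, Fkbp5 A_55_P1952379 ran from treated animals of the ninth hour, at 2176, over the control groups, at 2388 to 2641, to treated animals of the fifth and the first hour, at 3079 and 4070. Neighbors in that order overlapped in range. Nr3c1 A_55_P1967885 ran from treated animals of the fifth and the first hour, at 5061 and 5166, over treated animals of the ninth, at 5684, to control animals of the ninth, the first and the fifth hour, at 6576, 7432 and 7527, again with overlap between neighbors. Nr3c2 A_66_P110473 began with treated animals of the first and the fifth hour, at 9262 and 9709, and its other groups lay between 11245 and 11964. For Fkbp4 A_51_P185175 the control groups, at 793 to 867, lay below the treated groups, at 1013 to 1159.

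The probes of a gene differed in several cases in their log2 ratios. For each gene with more than 1 probe, the log2 ratio of the brightest probe was subtracted from that of each other probe on the same array, and the mean of the 8 differences was tested at each hour with an exact sign-flip permutation test, two-sided, with adjustment over the 30 tests. The smallest exact p that 8 arrays allow is 0.00781, and 10 of the 30 tests had an adjusted p below 0.05, each of them 0.0469. For Fkbp4, A_51_P185175 was above the brightest probe by 0.31, 0.34 and 0.26 at the 3 hours, on 7, 7 and 8 of 8 arrays, and A_52_P585104 was at -0.15 in the ninth hour, below on 7 of 8. For Nr3c2, A_51_P377914 was at -0.19, -0.37 and -0.26, below on 7 of 8 arrays each time, and A_66_P132841 at -0.27 in the ninth hour, below on 8 of 8. In that hour both lay below the brightest probe, which was itself not called. For Nr3c1, A_55_P2728068 was at 0.28 in the fifth hour, above the brightest probe on 8 of 8 arrays, beside 0.28 (adjusted p = 0.0670) in the first and 0.20 (0.125) in the ninth. The Ppid probe A_55_P2158873 was at -0.12 in the first hour, below on 8 of 8. The Fkbp5 probes differed by 0.13, -0.19 and -0.16 (adjusted p = 0.293, 0.0670 and 0.0639), which did not pass. The number of calls depended on the processing: it was 6 of the 30 tests with an offset of 50, 6 with no background correction and 6 with processed signals, and 0 by the exact permutation test with Aquantile normalization or with the authors' log2 ratios (11 and 9 at unadjusted p below 0.05). Without the first-hour array named above 0 passed by the same test (14 at unadjusted p below 0.05), the smallest exact p of 7 arrays being 0.0156. The probes share a transcript identifier within each of these genes except Ppid, their sequences are not in the files, and a dye difference particular to a probe cannot be told apart from a response particular to it.

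**Figure D4:**
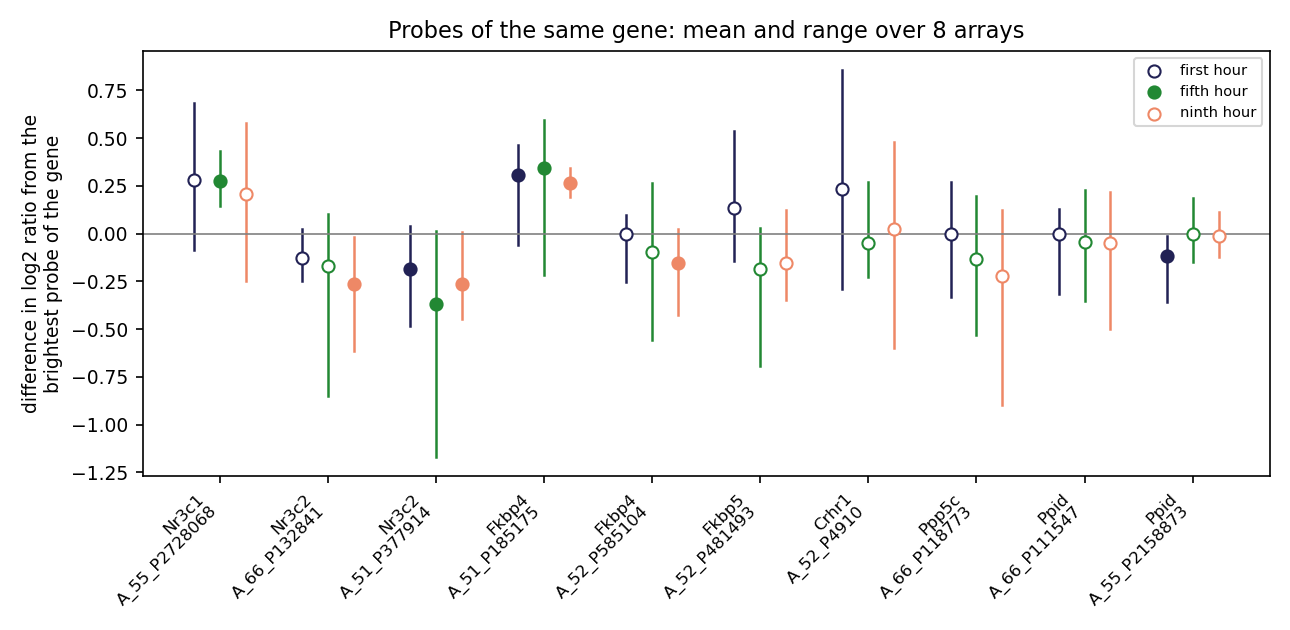
Difference in log2 ratio between each further probe and the brightest probe of the same gene, on the same array, at the 3 hours. Points are means over 8 arrays, bars run from the lowest to the highest array, and filled points have an adjusted p below 0.05 in the exact permutation test. Fkbp4 A_51_P185175 lies above 0 and Nr3c2 A_51_P377914 below 0 at each hour.

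The genes whose log2 ratios were most like those of a member were sought among 15397 genes over the 24 arrays, as a description of arrays that share hours and slides. For Fkbp5 they were Gjb6 (Pearson's r 0.960), Cdkn1a (0.957), Tsc22d3 (0.951), Atp10a (0.950) and Paqr5 (0.949). Within a slide their r ran from 0.901 to 0.982, and within an hour from 0.825 to 0.919 in the first, 0.792 to 0.972 in the fifth and 0.231 to 0.863 in the ninth, with 8 arrays each. The log2 fold changes of Gjb6 were 0.73, 0.44 and -0.08, those of Atp10a 0.88, 0.56 and -0.45 and those of Paqr5 0.85, 0.46 and -0.55 at the 3 hours. For Fkbp4, taken by its brightest probe, which was called at no hour, the genes were Pdia6 (0.897), Spef1 (0.885), Acvr1c (0.853), Prdx2 (0.850) and Ccpg1 (0.837), with r of 0.678 to 0.983 within a slide. Within the first and the fifth hour their r was 0.867 or more, and within the ninth it ran from -0.274 for Ccpg1 to 0.763 for Pdia6.

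Glucocorticoid target genes outside the members gave the setting for Fkbp5. Of 16 such genes, 14 were higher and 0 lower in limma during the first hour (0 lower at unadjusted p below 0.05), 7 higher and 0 lower during the fifth (1 lower at unadjusted p), and 3 higher and 7 lower during the ninth. Of all named genes 10.2% were higher and 10.4% lower during the first hour, 9.9% and 10.9% during the fifth, and 8.32% and 7.15% during the ninth. The median log2 fold changes of the 16 were 0.74, 0.16 and -0.12, beside -0.00, -0.00 and 0.01 for all named genes. Like Fkbp5, Tsc22d3 went from 0.93 over 0.20 to -0.58 and Mt2 from 1.5 over 0.50 to -0.32, higher on 8 of 8 arrays in the first hour and on 0 of 8 in the ninth. Sult1a1 at 2.10, 2.18 and 1.68 and Fam107a at 1.05, 1.01 and 0.85 were higher on 8 of 8 arrays at each hour, and so was Mt1 at 1.18, 0.89 and 0.43. Cdkn1a was at 2.06, 1.10 and 0.17, Zbtb16 at 0.25, 0.26 and -0.28, and Klf9, not called before the ninth hour, at 0.06, -0.09 and -0.35. The effect was called lower in the ninth than in the first hour for 13 of the 16 (median -0.65; 0.829% of all probes in either direction), and within treated animals all 16 were lower in the ninth hour than in the first (median -0.76; 3.93% of all probes). In control animals 2 of them, Mt1 (0.45) and Mt2 (0.99), were higher in the ninth hour (0.516% of all probes).

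**Figure D5:**
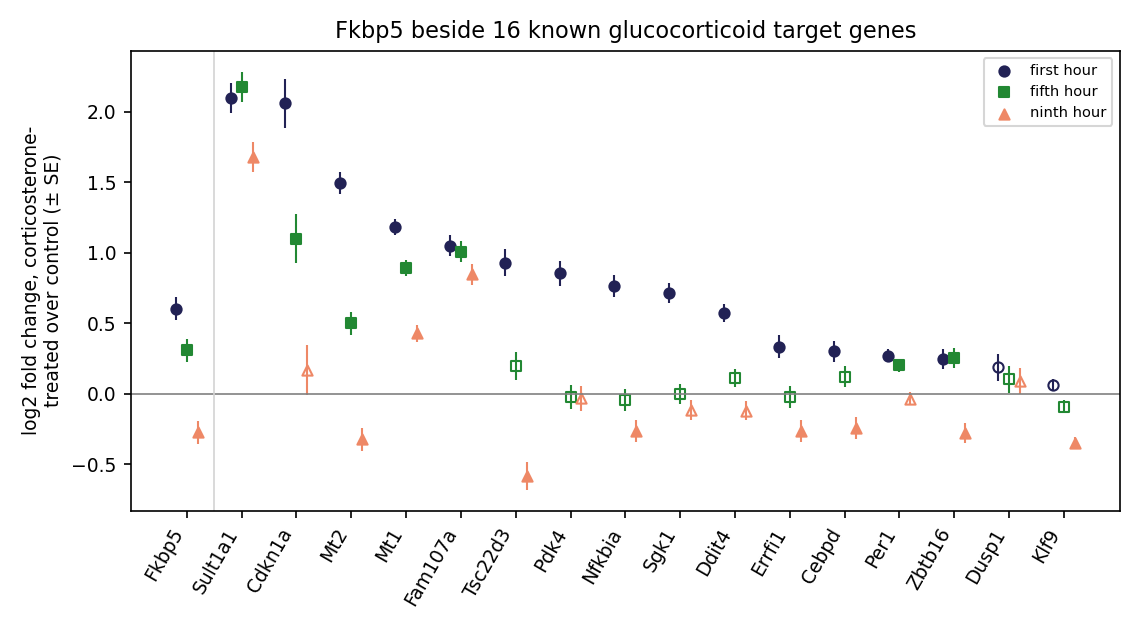
Log2 fold change of corticosterone-treated over control animals for Fkbp5 and 16 glucocorticoid target genes at the 3 hours, with the standard error as bars. Filled points have an adjusted p below 0.05. During the ninth hour Fkbp5 and 7 of the target genes are called lower, and Sult1a1, Fam107a and Mt1 are called higher.

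The wider chaperone system was read from a list as well. Of 33 genes of the Hsp90 and Hsp70 machinery, 4 were higher and 4 lower during the first hour, 7 and 2 during the fifth, and 4 and 2 during the ninth. The shares of all named genes just given (10.2% and 10.4%, 9.9% and 10.9%, 8.32% and 7.15%) apply to this and the later lists. The inducible Hsp70 genes Hspa1a (0.35, 0.33 and 0.27) and Hspa1b (0.38, 0.40 and 0.43) were higher at each hour on at least 7 of 8 arrays, as was Bag2 (0.19, 0.20 and 0.16), whereas Cdc37, whose protein brings kinases to Hsp90, was lower on 8 of 8 arrays (-0.17, -0.16 and -0.16). In control animals 3 of the 33 (0.516% of all probes in either direction) were lower in the ninth hour than in the first, Dnaja1 (-0.21), St13 (-0.26) and Hspb1 (-0.41), named after their values were seen, the interval over which the Fkbp4 probe A_55_P2740114 was lower too. In treated animals 5 of the 33 (3.93% of all probes) were lower over that interval. Of 13 other genes of the FKBP family, 1 was higher and 2 lower during the first hour, 1 and 5 during the fifth, and 1 and 2 during the ninth. Fkbp15 (-0.19, -0.21 and -0.14) and Fkbp3 (-0.29, -0.16 and -0.18) were lower at each hour, and Fkbp8 was higher in the first and the fifth (0.19 and 0.19) and Fkbp6, near background, in the ninth (0.57). Fkbp8 is also among the 33 genes of the chaperone list, so its calls enter the counts of both lists. Of 18 genes of corticotropin-releasing hormone signaling and steroid handling, 1 was higher and 0 lower in limma during the first hour (1 lower at unadjusted p below 0.05), 3 and 1 during the fifth, and 1 and 0 during the ninth (1 lower at unadjusted p). Those called were the steroid transporters Abcb1a and Abcb1b, Avp and Srd5a1, while Ucn, Ucn2, Ucn3, Hsd11b2, Srd5a2 and Mc2r were well above background in fewer than 24 channels.

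Markers of cell types were read beside the members, since in tissue fewer cells of a type and less RNA per cell cannot be told apart. The hippocampal samples gave summed marker signals that differed little with treatment at the mean for neurons (12 genes, most abundant Calb1, log2 of treated over control sums 0.07, 0.02 and 0.02) and for astrocytes (7 genes, S100b, 0.09, -0.04 and -0.04). Neuron sums were higher in treated animals on 7, 2 and 6 of 8 arrays, and astrocyte sums on 7, 1 and 1. For neurons 2, 1 and 3 genes were called higher and 1, 1 and 0 lower at the 3 hours by limma (2 lower in the ninth at unadjusted p below 0.05), with Spink8 higher on 8 of 8 arrays at each hour (0.61, 0.50 and 0.37). For astrocytes 1, 1 and 1 were higher and 1, 3 and 2 lower, with Aldh1l1 at 0.57, 0.50 and 0.41 and Aqp4 at -0.76, -0.86 and -0.71. The sums were lower in treated animals for microglia (6 genes, Csf1r, -0.11, -0.10 and -0.07), with 3, 2 and 1 lower and 0 higher in limma (1, 0 and 0 higher at unadjusted p at the 3 hours), and P2ry12 was lower at each hour (-0.49, -0.62 and -0.37). In control animals of the fifth hour 1 sum stood apart at 19549 (next 17008). The choroid plexus list (7 genes, Enpp2) stood at -0.26, -0.30 and -0.18 with 1, 1 and 0 genes lower in limma (1 in the ninth hour at unadjusted p below 0.05), but Enpp2 carried most of the sum (-0.30, -0.35 and -0.25) and the median of the 7 genes was -0.00, -0.08 and -0.09. On 1 fifth-hour array of slide 3 both sums stood apart, at 4209 in control (next 6810) and 3806 in treated animals (next 5596). Otx2, 1 of the 7 genes, was well above background in fewer than 24 channels. Of the list for neighboring tissue 9 of 10 genes had a probe (most abundant Tbr1, sums 0.04, 0.01 and 0.05), and 1 gene, Tcf7l2, was higher in the first hour (0.20), with 0 called at the later hours in limma (1 and 1 at unadjusted p below 0.05). The treated sum of 21697 on 1 first-hour array was given above.

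The summed signal of the endothelial markers was lower in treated animals at the mean of each hour. The sum of the 6 genes, of which Flt1 was the most abundant, was 13119 in control and 9554 in treated animals at the mean of the first hour, 13265 and 10557 in the fifth, and 12249 and 10986 in the ninth. The log2 ratios of the sums were -0.46, -0.33 and -0.16, higher in treated animals on 0, 0 and 1 of 8 arrays. The 6 genes did not move as 1: Flt1 (-0.61, -0.46 and -0.37) and Itm2a (-0.52, -0.54 and -0.27) were lower at each hour and Cldn5 in the first (-0.36), while Pecam1 was higher in the first and the fifth hour (0.29 and 0.23) and Slco1a4 in the fifth (0.22). For Cldn5 the effect changed by 0.60 from the first to the ninth hour (adjusted p = 2.59e-05), and in the ninth it was higher (0.24). The part of these cell types in the results for Nr3c1, Nr3c2 and Fkbp5 was not tested.

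Comparisons between hours within a treatment touched few members. In control animals 1 of the 20 probes, that of Fkbp4, was lower in the ninth hour than in the first (0.516% of all probes called), 0 differed between the fifth and the first in limma (0.0053%, with 0 members at unadjusted p below 0.05) and 0 between the ninth and the fifth (0.0318%, with 2 at unadjusted p below 0.05). In treated animals 3 probes differed between the ninth and the first hour, 1 of Nr3c2 higher and 2 of Fkbp5 lower (3.93% of all probes), 2 between the fifth and the first (0.537%) and 2 between the ninth and the fifth (0.668%), all of Fkbp5 and lower. The same control animals enter the comparisons between hours and those with treated animals of their hour.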

How the data were processed

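Hippocampal RNA was measured on 24 dual-color Agilent arrays with 62976 spots each. The deposited scanner files hold, in units of intensity, the median brightness of spots and of the background around them, and processed signals of the scanner software, also intensity. The authors' value table holds log2 ratios of Cy5 over Cy3 in 56745 rows. Its values differed from log ratios computed here with an offset of 50 and loess alone by a median of 0.00119, which settled their scale and direction. Intensities were background-corrected (normexp, offset 50 for p and 0 for fold changes, SE and levels), loess and quantile normalized, and tested with limma 3.58.1 (statmod 1.5.0, R 4.3.3) in a separate-channel fit of 6 groups, with an intraspot correlation of 0.286, empirical Bayes and Benjamini-Hochberg adjustment over 56605 unique probes, called at an adjusted p below 0.05. Of these, 34566 had a gene name and 77 lacked a value on some array. Tables and figures were made with Python 3.11.15, numpy 2.4.6, pandas 2.3.3 and matplotlib 3.10.9. The code was tested on simulated data. Median spot intensity was 99.0 in Cy3 and 156 in Cy5, with 0 saturated spots. Precision is limited by the number of arrays.

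All probes of the 10 member genes are described, and the brightest stands for its gene in lists. Of the other lists described the text names the genes called at all 3 hours, the most abundant marker and a part of the other called genes, and for Fkbp5 and Fkbp4 the 5 genes with the highest correlation of log2 ratios. Members and lists were chosen with earlier results of these data known. Alternatives were other offsets, no background correction, median centring, Aquantile, processed signals, the authors' log2 ratios, tests on log ratios, slide as a block, separate fits, an intensity trend, filters on dim probes, another choice of probe, and each slide left out. A test on log ratios with slide as a block and leaving out array 8 of the first hour were chosen after seeing the data.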

Additional observations from a re-analysis of the deposited data

Results flagged for a closer look

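In 11 of 120 groups of 8 animals, every member probe being tested, 1 animal stood far from the others, and chance flags about 1 in 20 groups, which is 6 here. For Nr3c1 A_55_P2728068 the lowest control animal of the fifth hour had a signal intensity of 2993 (next 4014) and the lowest treated animal 2064 (next 3411), both on 1 array of slide 3. For Nr3c2 A_51_P377914 the highest control animal of the ninth hour, on slide 1, had 157 (next 137). For Fkbp5 A_52_P481493 the highest treated animal of the first hour, on slide 3, had 438 (next 329) and the lowest of the fifth, on slide 2, had 143 (next 178). Treated animals of the first hour on slide 2 stood apart for Crhr1, with the lowest at 612 (next 742) for A_51_P229163 and the highest at 55.2 (next 36.9) for A_52_P4910. For Ppp5c A_51_P307243 the highest treated animal of the fifth hour, on slide 3, had 5735 (next 4721), and for A_66_P118773 the lowest control animal of the ninth, on slide 2, had 194 (next 243). For Ppid A_52_P485700 the highest treated animal of the first hour, on slide 3, had 12406 (next 10159), and for A_66_P111547 the lowest treated animal of the ninth, on slide 1, had 838 (next 972).

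Among summed signals of cell type and tissue markers the same held in 4 of 36 groups, with 1.8 to be counted on by chance. For the microglia list the highest control animal of the fifth hour had 19549 (next 17008), and for the choroid plexus list the lowest control animal of that hour had 4209 (next 6810) and the lowest treated animal 3806 (next 5596), all 3 on 1 array of slide 3. That fifth-hour array also held the animals of Nr3c1 A_55_P2728068 and Ppp5c A_51_P307243 given above for that hour. It had the most outlier spots of the arrays (276) and the lowest share well above background in Cy5 (64.0%). It was left out only together with the rest of slide 3. For the list of neighboring brain tissue the highest treated animal of the first hour, on slide 3, had 21697 (next 14266), and this array also held the first-hour animals of Fkbp5 A_52_P481493 and Ppid A_52_P485700 given above.

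The effect of corticosterone differed between hours, in limma's test of the difference itself, for 3 probes. For Nr3c1 A_55_P1967885 it changed by 0.36 from the first to the ninth hour (adjusted p = 0.00533) and by 0.36 from the fifth to the ninth (adjusted p = 0.0255). For Fkbp5 A_55_P1952379 it changed by -0.88 from the first to the ninth hour (adjusted p = 6.30e-07) and by -0.58 from the fifth to the ninth (adjusted p = 0.00784). For Fkbp5 A_52_P481493 it changed by -1.17 from the first to the ninth hour (adjusted p = 3.99e-10), by -0.61 from the first to the fifth (adjusted p = 0.00175) and by -0.55 from the fifth to the ninth (adjusted p = 0.0255).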

How the results depend on the processing

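Over 18 alternatives, 3683 of 3768 values of the member probes stayed on the same side of the threshold, among them 137 that changed sign with neither value called. Of the rest, 71 were no longer called, 14 were called where the reported test had not called them, and 0 called values changed sign in limma. Of the other genes named, 28 values changed sign with neither value called.

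The number of member probes called moved mainly with the slides, where fewer arrays were tested. Without slide 3, the count went from 12 to 5 in the first hour and from 10 to 6 in the fifth, and without slide 1 from 10 to 6 in the fifth hour and from 7 to 3 in the ninth. For the effect in the fifth hour against that in the first, 1 call became 0 without slide 2 and 0 without slide 3. For the ninth hour against the fifth, 3 calls became 0 without slide 1, 0 without slide 3, and 1 each in a test on log ratios, in that test with slide as a block (chosen after seeing the data) and with the authors' log2 ratios, and the cause was not tested. The call in control animals between the ninth and the first hour became 0 without slide 1 and without slide 2. In treated animals, 2 calls between the fifth and the first hour became 1 without slide 2, without slide 3, with processed signals and without 1 first-hour array of slide 3 (chosen after seeing the data), and 2 between the ninth and the fifth became 0 without slide 1 and 1 without slide 3. With slide as a block no count of members moved.

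The number of called differences between probes of a gene went from 10 to 6 with an offset of 50, to 6 with no background correction, to 6 with processed signals, and to 0 by the exact permutation test with Aquantile normalization or the authors' log2 ratios (11 and 9 at unadjusted p below 0.05), and the cause was not tested. Without slide 1, 2 or 3 the count was 0 (2, 3 and 3 at unadjusted p below 0.05), the smallest possible exact p then being 0.0312 to 0.125 by hour. Without the first-hour array it was 0 as well (14 at unadjusted p below 0.05), with 0.0156 the smallest exact p of that hour. Signal over background limits the dim Crhr1 probe A_52_P4910, well above background in 38 of 48 channels.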
